A study of Mus musculus with 4 samples.

Results

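The chromodomain helicase DNA-binding (Chd) family was examined as 9 genes, Chd1 to Chd9, of the 32285 genes listed for each library. The members were taken by gene symbol, and all 9 were found once in every library. The data are single-cell RNA-seq of cells sorted for tdTomato from the forebrain of C57BL/6 mice at postnatal day 5. Tamoxifen given at the midfetal stage switched on CreERT2, a Cre recombinase driven by the neural progenitor promoter Nestin, in all groups, and Cre also switched on the tdTomato reporter. Control cells had the genotype NestinCreERT2/tdTomato/Chd8+/+, and mutant cells had the genotype NestinCreERT2/tdTomato/Chd8+/F, in which 1 Chd8 allele is floxed. There were 2 libraries of each genotype, named control 1, control 2, mutant 1 and mutant 2 after their genotype and replicate number. The cells of a library were pooled from 3 mice, so the library and not the mouse was the unit of replication.

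CHD proteins are Snf2-type ATPases that carry a pair of chromodomains before the helicase-like motor and that slide, space or evict nucleosomes. CHD1 and CHD2 act on transcribed chromatin, CHD3, CHD4 and CHD5 are alternative motor subunits of the NuRD (nucleosome remodelling and deacetylase) complex, and CHD6, CHD7, CHD8 and CHD9 form the remaining subfamily. Heterozygous mutations of CHD2, CHD3, CHD7 and CHD8 cause neurodevelopmental disorders in humans, among them epilepsy for CHD2, CHARGE syndrome for CHD7 and autism for CHD8.

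The family shares the DEAH box, the short ATPase motif that gives this class of helicases its name. The 60 coding bases around it are shown for a member of each subfamily and for the members that separated cell types most in these data, in mm10 (GRCm38) from GENCODE vM21, in the sense direction, with the 4 codons of the DEAH box in capitals. The stretches lie in single exons at chr7:73490595-73490654 on the minus strand for Chd2, chr11:69356938-69356997 on the minus strand for Chd3, chr4:152370583-152370642 on the plus strand for Chd5, chr4:8828319-8828378 on the plus strand for Chd7 and chr14:52219627-52219686 on the minus strand for Chd8.
Chd2: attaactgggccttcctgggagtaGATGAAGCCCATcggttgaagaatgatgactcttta
Chd3: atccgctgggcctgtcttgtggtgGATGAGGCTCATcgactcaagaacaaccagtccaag
Chd5: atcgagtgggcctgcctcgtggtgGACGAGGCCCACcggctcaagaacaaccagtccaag
Chd7: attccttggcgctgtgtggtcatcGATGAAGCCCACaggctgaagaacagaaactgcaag
Chd8: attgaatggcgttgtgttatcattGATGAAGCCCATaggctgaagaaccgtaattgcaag

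Over this window, the 10 pairs of genes within a subfamily were identical at 73.3% to 85% of bases (median 78.3%), and the 26 pairs between subfamilies at 48.3% to 73.3% (median 61.7%). In the annotated transcript taken for each member, Chd3 and Chd4 shared 8 stretches of 31 bases, and no other pair shared any. These stretches can overlap each other. Reads of these transcripts thus had little identical sequence in which to be confused between members. Chd2, Chd5, Chd8 and Chd9 each overlap another annotated gene, and the overlapping gene lies on the same strand for Chd2 (1810026B05Rik), so counts of Chd2 can include reads of that neighbour.

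The floxed Chd8 allele carries loxP sites on either side of exons 11 to 13. In the 37-exon coding transcript of GENCODE vM21, these exons span chr14:52219597-52221424 (mm10, minus strand), although the study ties its exon numbers to no named transcript. In this numbering they hold 543 coding bases, a multiple of 3 that amounts to 181 codons and includes the DEAH box shown above. The DEAH box of Chd8 was read from a transcript with 38 exons. Under another exon numbering, the deleted bases, and whether they include the DEAH box, could differ. The ends of the exons that would be removed or joined are printed because they define the transcript that the recombined allele would make, with the 6 bases next to each junction in capitals. They lie at chr14:52222482-52222526 (end of exon 10), chr14:52221380-52221424 (start of exon 11), chr14:52219597-52219641 (end of exon 13) and chr14:52218272-52218316 (start of exon 14), all on the minus strand.
Exon 10 end: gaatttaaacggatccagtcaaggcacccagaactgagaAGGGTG
Exon 11 start: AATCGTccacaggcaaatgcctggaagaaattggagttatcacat
Exon 13 end: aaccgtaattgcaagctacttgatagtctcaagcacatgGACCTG
Exon 14 start: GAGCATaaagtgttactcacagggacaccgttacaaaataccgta

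Joined from exon 10 to exon 14, the reading frame of this transcript stayed open over 2401 of its 2582 codons. These were 790 codons before the junction and 1611 after it, and both parts keep the codons of the intact transcript. Exon 13 ends 5277 bases before the end of the annotated transcript, whereas the libraries count transcripts at their 3′ ends. Chd8 counts in these files therefore did not check the deletion, and the genotype of each library rests on its label. The study reported, by immunoblot of tdTomato-positive cells sorted from embryos, less CHD8 protein in mutant than in control cells.

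The 4 libraries held between 46274374 and 79328841 UMIs (unique molecular identifiers, each standing for 1 captured transcript) in 27742 cell barcodes, of which 17623 passed the filters on UMIs, genes and mitochondrial share. The replicates stood apart. The matrix headers named Cell Ranger 7.0.0 for both replicate 1 libraries and 5.0.1 for both replicate 2 libraries, Xist was at 0.149 and 0.153 CPM (UMIs of a gene as counts per 1000000 UMIs) in replicate 1 and at 1633 and 1749 CPM in replicate 2, and 9.38% to 12.3% of barcodes exceeded the mitochondrial limit in replicate 1 against 37.8% to 44.0% in replicate 2. Each replicate held 1 library of each genotype, so genotype was balanced over these differences. The study states that male mice were used for its scRNA-seq, which the Xist counts of replicate 2 do not match. The sex of the pooled mice was not tested. Between 2 and 15 kept barcodes were shared by any pair of libraries.

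Cells were clustered without the Chd genes, and the clusters were named from marker genes as "-like" classes. The suffix is left out from here on. The 13 classes with at least 20 cells in every library held 16318 cells (92.6%), 2 clusters with 1011 cells (5.74%) could not be named, and choroid plexus, endothelial cells and fibroblasts were too few to test. Although the labels call the sample neuronal cells, classes named as neurons made up 3413 cells (19.4%), or 4943 (28.0%) with their precursors. An unnamed cluster of 421 cells had Bcl11b, a marker on the excitatory neuron list, and Syt1 among its leading genes. It is not in these counts, so the share of neurons can be higher. Astrocytes, OPCs (oligodendrocyte precursor cells) and ependymal cells were also well represented. Microglia, vascular cells, fibroblasts and choroid plexus made up 1226 cells (6.96%). Microglia included border macrophage genes such as Pf4 among their leading genes, oligodendrocytes included genes of committed precursors such as Enpp6, Bmp4 and Bcas1, and the excitatory precursors expressed genes of dividing cells. In the oligodendrocyte cluster and the neural progenitor clusters, another class had the highest marker score. These clusters were named from their leading genes, so results for these classes rest on names with the second highest score. A main astrocyte cluster came to 99.7% from replicate 1 and another to only 5.64%. Inhibitory neurons were mostly a cluster of 1191 cells with Sp8 and Sp9 among its leading genes and a cluster of 1113 cells led by Prokr2. Only a cluster of 154 cells had Lhx6 among its leading genes. Levels in this class therefore mainly describe the larger clusters, and the Chd genes were not compared between them.

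The family was detected throughout the sort. In control 1, 99.1% of cells held at least 1 UMI of a Chd gene, and after every cell was thinned to 2000 UMIs the share was 85.1%. Levels are given as CPM of a class in a library, in the order control 1, control 2, mutant 1 and mutant 2, and means are given ± SD over these 4 libraries. Because 3′ counts are not set to transcript length, levels are compared between classes for the same gene and not between genes.

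Before classes were compared, the members were compared between replicates over all cells, because the replicates were counted with different software versions. Chd2 was the member with the largest difference in either direction, with 140.8 and 130.2 CPM in control 1 and mutant 1 against 89.9 and 84.0 CPM in control 2 and mutant 2. Chd4 went the other way, with 193.5 and 206.6 CPM in replicate 1 against 326.6 and 285.3 CPM in replicate 2. For every member except Chd1, the 2 replicates did not overlap whatever the genotype. Chd8, for example, was at 61.7 and 68.7 CPM in control 1 and mutant 1 against 89.8 and 94.9 CPM in control 2 and mutant 2. The share of all genes that separated in this way was not counted. The log2 difference, replicate 2 minus replicate 1, was 0.61 for Chd4, 0.50 for Chd8, 0.43 for Chd5, 0.02 for Chd1, -0.23 for Chd6, -0.27 for Chd3, -0.32 for Chd9, -0.41 for Chd7 and -0.64 for Chd2. Chd2 was lower in replicate 2 in 13 of 13 classes and Chd4 in 0 of 13. Chd3 was lower in only 6 of 13, with log2 differences from -0.81 to 0.87. The counts for the others were 11 for Chd7, 10 for Chd6, 9 for Chd9, 4 for Chd1 and 1 each for Chd5 and Chd8. The replicates also differed in class make-up. Inhibitory neurons were 1053 of 5710 cells in control 1 and 921 of 5659 in mutant 1. They were 248 of 2973 in control 2 and 236 of 3281 in mutant 2. The part of class make-up in the values over all cells was not tested. The 5 genes with the most sequence outside annotated exons (Chd2, Chd6, Chd7 and Chd9 with 100893 to 203017 bases, and Chd1 with 58923) included the 3 most reduced in replicate 2, and Spearman's rho between the 2 measures was -0.6 over the 9 genes, as a description. Cell Ranger counts intronic reads by default from version 7, and the part of this in the difference was not tested. The class comparisons below were therefore made within libraries, and the genotype comparisons are also given within replicates.

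**Figure D1:**
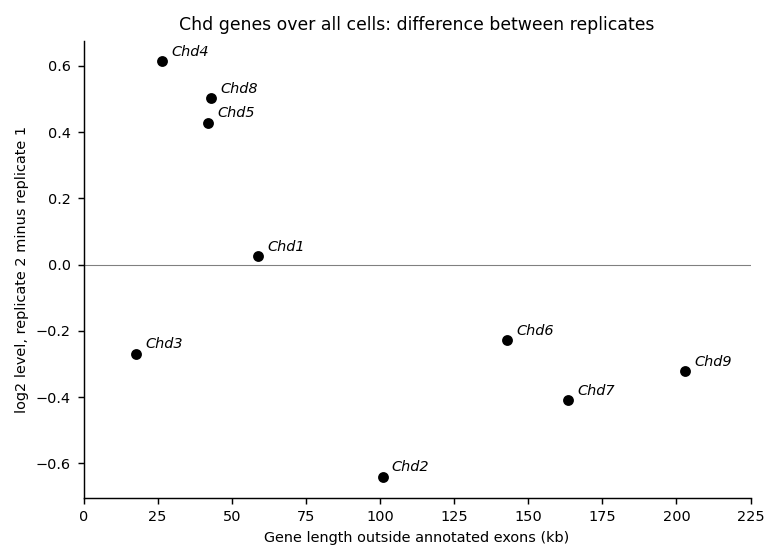
Each point is a Chd gene, with its annotated length outside exons (kb) on the x axis and the log2 difference in CPM over all cells, replicate 2 minus replicate 1, on the y axis. Chd4, Chd8 and Chd5 lie above 0.4 and Chd2 lies lowest at -0.64, while Chd3 lies below 0 with the shortest sequence outside exons. Within classes, Chd3 was lower in replicate 2 in 6 of 13.

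Among the NuRD motor subunits, Chd3 and Chd5 separated the cell classes strongly and Chd4 did so weakly. Chd3 was highest in inhibitory neurons in all 4 libraries, with 326, 405, 334 and 463 CPM (382 ± 64.5). It stood at 201, 311, 195 and 308 CPM in excitatory neurons, at 168, 281, 191 and 378 CPM in excitatory precursors and at 240, 188, 313 and 233 CPM in oligodendrocytes (243 ± 51.6). These 4 classes lay above every value in astrocytes, where Chd3 was at 33.5, 44.8, 39.9 and 43.8 CPM (40.5 ± 5.14). Ependymal cells (mean 29.9 CPM) and microglia (24.5 ± 8.92 CPM) were lowest, and the means of the 13 classes spanned 15.6-fold.

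Chd5, the NuRD subunit best known from neurons, had a different order of classes. Its highest mean was in dividing OPCs, with 37.5, 74.4, 45.2 and 75.7 CPM (58.2 ± 19.7), followed by OPCs with 27.8, 54.7, 26.8 and 48.6 CPM (39.5 ± 14.3). Excitatory neurons had 41.4, 35.2, 36.7 and 29.4 CPM (35.7 ± 4.95) and inhibitory neurons 17.7, 43.2, 19.8 and 36.2 CPM (29.2 ± 12.5). The OPC and neuron values overlapped. Ependymal cells came next at 15.4 ± 3.42 CPM, whereas excitatory precursors were at 1.04, 1.92, 2.32 and 2.69 CPM, which rests on 16 UMIs, and microglia had 7 UMIs in all with none in mutant 2.

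The share of cells with a Chd5 UMI after thinning to 2000 UMIs followed the CPM. It was 11.9% (95% Clopper-Pearson interval 9.49 to 14.8) in dividing OPCs, 7.65% in OPCs, 7.43% in excitatory neurons and 5.37% in inhibitory neurons. In microglia, which served as the class that should lack the gene, the share was 0.829% (0.171 to 2.40), and in excitatory precursors it was 0.373% (0.0452 to 1.34), which is at or below that background. Without thinning, the shares were 49.5% in dividing OPCs at a median of 14292 UMIs per cell and 1.93% in microglia at a median of 10716.5 UMIs. These intervals cover counting error only.

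Chd4, the widely expressed motor of NuRD, spanned 1.84-fold between classes. It was highest in excitatory precursors in all 4 libraries, with 299.6, 511, 321 and 425 CPM (389 ± 98.1), and its lowest mean was in astrocytes, with 156, 282, 165 and 240 CPM (211 ± 60.5), although pericytes and mural cells were below astrocytes in control 2 and mutant 2. The replicates differed more than most classes did, and only 1 of the 12 pairs of neighbouring classes differed by more than the spread of their paired differences over libraries.

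In the remaining subfamily, Chd7, the gene of CHARGE syndrome, was highest in excitatory precursors, OPCs and dividing OPCs. Of its neighbouring pairs of classes, 7 of 12 differed beyond their spread, the most of any member. Excitatory precursors had 524, 416, 485 and 478 CPM (476 ± 44.6), OPCs 357, 346, 370 and 481 CPM (388 ± 62.6) and dividing OPCs 340, 360, 343 and 411 CPM (364 ± 32.5). Excitatory precursors were highest in 3 libraries and OPCs in mutant 2. Dividing inhibitory progenitors (323 CPM) and inhibitory neurons (269 CPM) were intermediate, while excitatory neurons had 141, 158, 165 and 129 CPM (148 ± 16.5). Not every progenitor class was high, since neural progenitor cells (149 CPM) and dividing astrocytes (147 CPM) lay near the excitatory neurons. Pericytes and mural cells were lowest in all 4 libraries, at 45.1 ± 17.5 CPM.

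Chd6, Chd8 and Chd9 varied less. Chd6, whose protein is a transcription-associated remodeller, was highest in inhibitory neurons (205, 221, 208 and 223 CPM, 214 ± 8.88) and lowest in microglia (87.1, 82.5, 101 and 81.0 CPM, 87.8 ± 8.87), in all 4 libraries, a span of 2.44-fold. Chd8 was likewise highest in inhibitory neurons in all 4 libraries, with 93.8, 124, 105 and 168 CPM (123 ± 32.9), and lowest on average in microglia, with 48.4, 44.4, 56.8 and 54.0 CPM (50.9 ± 5.54). Excitatory neurons had 65.6, 119, 91.1 and 130 CPM of Chd8 and astrocytes 49.4, 77.7, 50.7 and 79.5 CPM, so that within each library the neurons lay above the astrocytes. Chd9 was highest on average in microglia, but this rested on replicate 1, with 245, 127, 238 and 90.8 CPM. In both replicate 2 libraries inhibitory neurons were higher, at 148 CPM in control 2 and 123 CPM in mutant 2.

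Of the CHD1-type genes, Chd1, which encodes a remodeller of transcribed chromatin, varied least. Its means ran from 40.6 ± 8.75 CPM in excitatory neurons to 70.5 CPM in dividing OPCs, a span of 1.73-fold, and none of the 12 neighbouring pairs of classes differed beyond their spread. Chd2 was highest in microglia in all 4 libraries, with 199, 149, 207 and 137 CPM (173 ± 34.8), and lowest on average in dividing OPCs, with 78.9, 67.4, 80.8 and 60.9 CPM (72.0 ± 9.47). Excitatory precursors (197, 139, 184 and 135 CPM) and inhibitory neurons (189, 116, 189 and 111 CPM) lay just below the microglia.

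**Figure D2:**
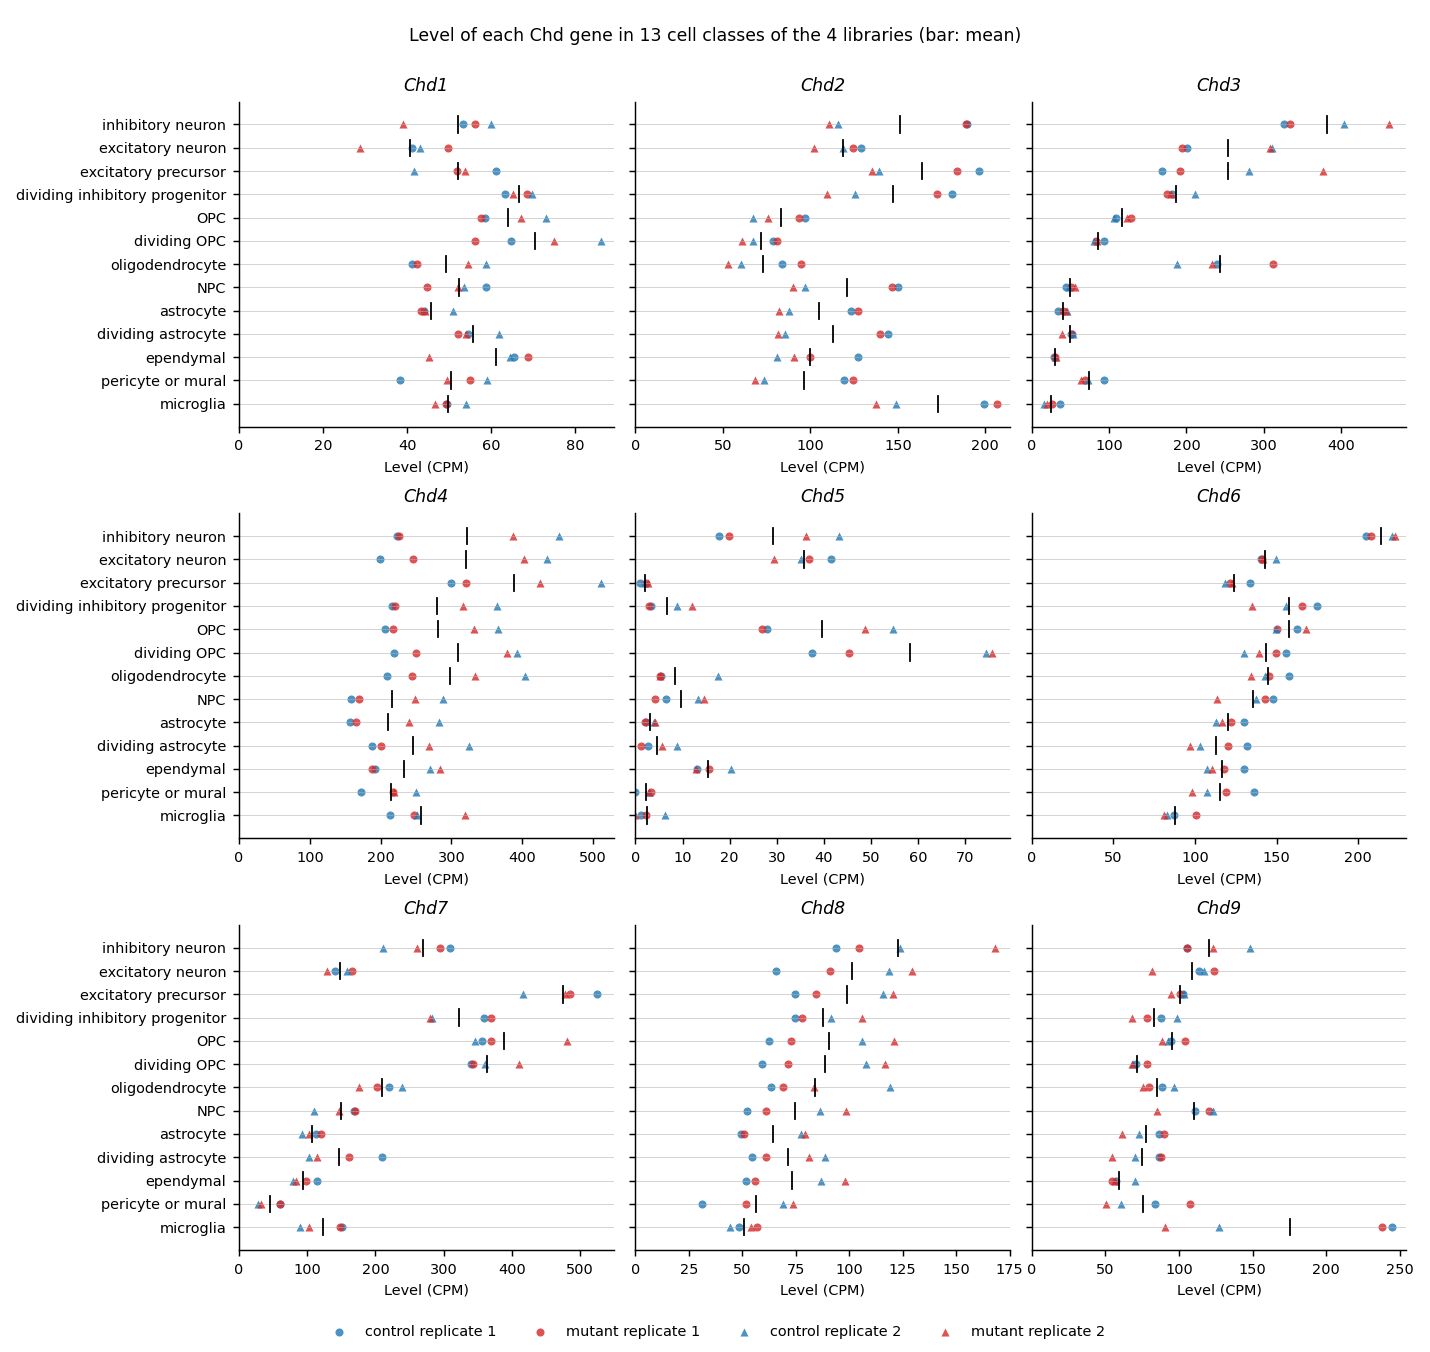
Each panel shows a Chd gene, with the level in CPM on the x axis and the 13 cell classes on the y axis. Points are the 4 libraries (blue control, red mutant, circles replicate 1, triangles replicate 2) and the bar is their mean. Chd3 reached 463 CPM in inhibitory neurons and stayed below 50 CPM in astrocytes, and Chd5 reached at most 20.2 CPM outside OPCs, dividing OPCs and neurons. The circles and triangles of Chd2, Chd4 and Chd8 separated in nearly every class.

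The class differences were tested with edgeR's quasi-likelihood test on UMIs summed per class and library, with the library as a block, over 15752 genes. Over 19 comparisons, 106 of the 171 tests of a member passed an adjusted p of 0.05. The background was high, since 55.7% of all gene tests in these comparisons passed, so that the share of members called is near that of other genes and the sizes are the informative part. Of the 106 calls, 57 held in every alternative fit that was run and 49 were lost in at least 1. The calls that held numbered 13 of 16 for Chd3, 12 of 16 for Chd5, 10 of 15 for Chd7, 7 of 11 for Chd2, 7 of 10 for Chd9, 5 of 13 for Chd6, 2 of 9 for Chd8, 1 of 4 for Chd1 and 0 of 12 for Chd4. Log2 differences below are followed by their standard error.

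Neurons, as the mean of inhibitory and excitatory neurons, were compared with the mean of astrocytes and OPCs. Of the 9 members, 7 were higher in neurons and none was lower, beside 35.5% of all genes higher and 33.7% lower. Chd3 differed most, by 2.17 ± 0.12 (adjusted p = 2.72e-21), followed by Chd5 with 1.55 ± 0.14 (adjusted p = 2.76e-13). Chd8 was higher by 0.58 ± 0.07 (adjusted p = 9.13e-10), Chd2 by 0.54 ± 0.06, Chd9 by 0.43 ± 0.10, Chd4 by 0.41 ± 0.06 and Chd6 by 0.37 ± 0.05. Chd1 and Chd7 did not pass. The call for Chd4 was lost without the library block. The median difference of the members was 0.43 and that of all genes was 0.02.

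Along the inhibitory lineage, inhibitory neurons were compared with their dividing progenitors. Chd5 was higher in the neurons by 2.34 ± 0.25 (adjusted p = 6.51e-11) and Chd3 by 1.13 ± 0.16 (adjusted p = 7.37e-08). Smaller rises were seen for Chd9 (0.64 ± 0.15), Chd8 (0.58 ± 0.10) and Chd6 (0.56 ± 0.07), and Chd4 passed with 0.30 ± 0.09, a call that was lost without mutant replicate 1 (0.23) among other alternatives. Thus 6 of 9 members were higher and 0 lower, beside 33.3% of genes higher and 22.5% lower. The difference for Chd4 was 0.03 in replicate 1 alone and 0.35 in replicate 2 alone. The call for Chd8 was lost without the library block.

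The excitatory lineage showed another pattern, with Chd5 and Chd7 in opposite directions. Chd5 was higher in excitatory neurons than in excitatory precursors by 4.10 ± 0.33 (adjusted p = 1.04e-14), with 16 UMIs of Chd5 in the precursors of all libraries. Chd7 was lower in the neurons by 1.55 on the log2 scale (log2 difference -1.55 ± 0.14, adjusted p = 3.66e-13). Chd6 was higher by 0.34 ± 0.08 and Chd2 lower, at -0.33 ± 0.09, and both calls were lost within replicate 2 alone. In all, 2 members were higher and 2 lower, beside 27% of genes higher and 17.6% lower. Chd3, which was already high in the precursors, did not pass here. The precursors also expressed genes of dividing cells, and the part of this in the differences was not tested.

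In the oligodendrocyte lineage, Chd3 and Chd5 went opposite ways. Chd3 was higher in oligodendrocytes than in OPCs by 1.23 ± 0.17 (adjusted p = 2.25e-08), whereas Chd5 differed by -2.14 ± 0.26 (adjusted p = 1.55e-09) and Chd7 by -0.77 ± 0.13 (adjusted p = 4.85e-06). All 3 differences had the same sign in replicate 1 alone (1.39, -2.12 and -0.61) and in replicate 2 alone (1.07, -2.04 and -0.82). Chd4 passed with 0.22 ± 0.09 and was lost without control replicate 2 (0.21) and without mutant replicate 2 (0.24). That made 2 members higher and 2 lower, beside 19.1% of genes higher and 28.7% lower. Between OPCs and dividing OPCs, 5 members passed (4 higher in OPCs and Chd5 lower, beside 17.7% and 9.28% of genes), but none of these calls held in every alternative. Each was lost without mutant replicate 1, where Chd2 fell from 0.28 to 0.17, Chd3 from 0.51 to 0.35, Chd6 from 0.19 to 0.14 and Chd9 from 0.46 to 0.36, and Chd5 stood at -0.55 beside -0.51. Between astrocytes and dividing astrocytes, Chd6 passed alone with 0.26 ± 0.07, beside 31% of genes higher in astrocytes and 14.4% lower, and this call was lost without TMM scaling.

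**Figure D3:**
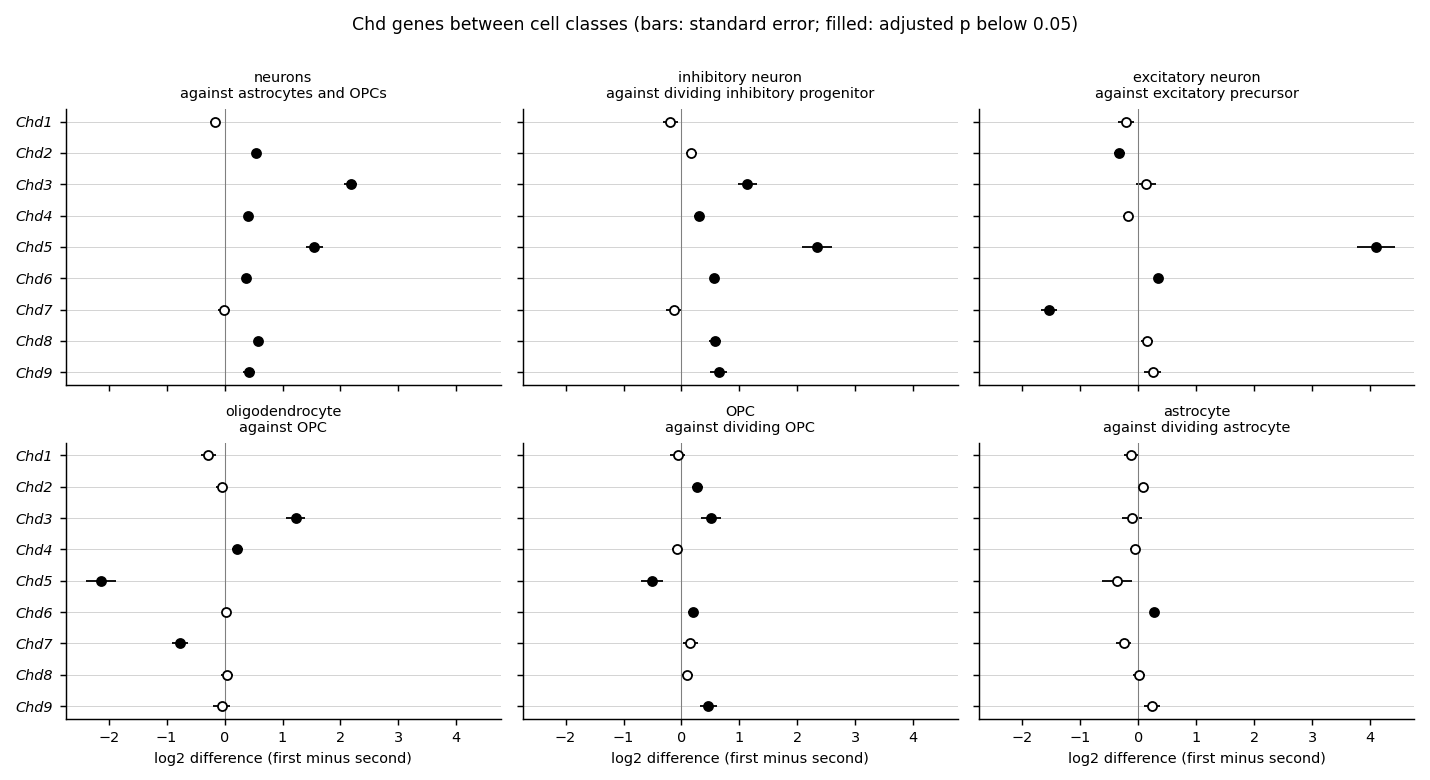
Each panel is a comparison of cell classes, with the log2 difference (first class minus second) on the x axis and the Chd genes on the y axis. Points are the fitted difference, bars are the standard error, and filled points passed an adjusted p of 0.05. Chd5 lies at 4.10 between excitatory neurons and their precursors and at -2.14 between oligodendrocytes and OPCs, and Chd3 lies at 2.17 between neurons and the 2 glial classes.

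Each class was also set against the mean of the other classes. In inhibitory neurons, 8 of 9 members were higher and 0 lower, beside 37.2% of genes higher and 29.5% lower, and only Chd1 did not pass. Chd3 (2.19 ± 0.10, adjusted p = 6.99e-24), Chd5 (1.75 ± 0.16), Chd6 (0.82 ± 0.05), Chd8 (0.75 ± 0.07), Chd7 (0.72 ± 0.09), Chd2 (0.56 ± 0.06) and Chd9 (0.49 ± 0.10) held in every alternative. The opposite was seen in pericytes and mural cells, where 8 members were lower and 0 higher, beside 31.5% and 26.6% of genes, although only Chd7 (-2.27 ± 0.14, adjusted p = 9.85e-19) held in every alternative. In dividing astrocytes 0 members were higher and 7 lower, beside 26.1% and 27.9% of genes, and in astrocytes 0 were higher and 5 lower, beside 34.2% and 29.8%, with Chd5 (-1.45 ± 0.19) and Chd3 (-1.25 ± 0.13) the most reduced in astrocytes.

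Microglia had more Chd9 (1.32 ± 0.11, adjusted p = 2.02e-14) and Chd2 (0.87 ± 0.08, adjusted p = 5.53e-14) than the mean of the other classes. Chd3 (-1.58 ± 0.20) and Chd6 (-0.45 ± 0.07) were lower. Single classes came close to microglia. The difference did not exceed the spread from inhibitory neurons for Chd9, from excitatory precursors for Chd2 or from ependymal cells for Chd3. In total, 3 members were higher and 5 lower there, beside 28.8% and 31.5% of genes. The Chd9 difference was 1.58 in replicate 1 alone and 0.63 in replicate 2 alone, and Chd4 (0.19 ± 0.07) was lost without control replicate 1 (0.12), mutant replicate 1 (0.13) or mutant replicate 2 (0.19), rose to 0.31 without control replicate 2, and was -0.0047 without TMM scaling. Ependymal cells, which carry motile cilia, had less Chd3 (-1.73 ± 0.15), Chd7 (-0.91 ± 0.11) and Chd9 (-0.57 ± 0.11) but more Chd5 (0.94 ± 0.16), with 2 members higher and 3 lower beside 42.9% and 33.6% of genes. In NPCs (neural progenitor cells), Chd3 was lower by 1.17 on the log2 scale (-1.17 ± 0.15), and 0 members were higher and 4 lower beside 32.8% and 26.1% of genes. Chd7 was among them (-0.41 ± 0.10), but at resolution 2 of the clustering, where the NPC class was smaller, it was higher by 0.59 (adjusted p = 2.15e-07). OPCs (1.12 ± 0.09), dividing OPCs (0.96 ± 0.09), excitatory precursors (1.38 ± 0.09) and dividing inhibitory progenitors (0.86 ± 0.09) had more Chd7 than the other classes.

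In OPCs 3 members were higher and 1 lower, beside 32.5% and 21.4% of genes, with Chd5 at 2.09 ± 0.14 and Chd2 at -0.54 ± 0.07. In dividing OPCs 3 were higher and 3 lower, beside 26.7% and 25% of genes, with Chd5 at 2.65 ± 0.15, Chd2 at -0.84 ± 0.08 and Chd9 at -0.52 ± 0.12. The precursors of the neuronal lineages instead had more Chd3. In excitatory precursors 4 were higher and 2 lower, beside 24.4% and 25.5% of genes, with Chd3 at 1.32 ± 0.11 and Chd2 at 0.45 ± 0.07 against Chd5 at -2.20 ± 0.34. In dividing inhibitory progenitors 5 were higher and 1 lower, beside 27.3% and 30.1% of genes, with Chd3 at 0.96 ± 0.11. Excitatory neurons had 5 higher and 2 lower, beside 32.9% and 25.7% of genes, with Chd5 at 2.24 ± 0.16, Chd3 at 1.47 ± 0.11 and Chd1 at -0.41 ± 0.11. In oligodendrocytes 4 were higher and 1 lower, beside 29% and 29.3% of genes, with Chd3 at 1.53 ± 0.11 and Chd2 at -0.59 ± 0.08.

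Control and mutant cells were then compared within each class. Chd8 itself was higher in the mutant library than in its control in most classes, and no difference passed the test. In inhibitory neurons it was at 93.8 and 124 CPM in control 1 and control 2 and at 105 and 168 CPM in mutant 1 and mutant 2, and the groups overlapped. The mutant library was at 112% of its control (95% exact interval 100.3 to 124) in replicate 1 and at 136% (111 to 166) in replicate 2. In excitatory neurons the values were 139% (116 to 165) and 109% (87.4 to 137), in OPCs 117% (103 to 132) and 114% (99.2 to 132), and in astrocytes 103% (93.2 to 113) and 102% (93.7 to 112). In oligodendrocytes the replicates went opposite ways, at 109% (90.7 to 131) and 70.3% (52.4 to 94.5). These intervals cover counting error and not the difference between pools of mice.

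Over the 13 classes, Chd8 was higher in the mutant library of both replicates in 11 and of opposite sign in 2 (oligodendrocytes and dividing astrocytes). The classes of a library come from the same mice and are not independent of each other. Of all genes with at least 40 UMIs in a class, 24.8% were higher in both mutant libraries and 23.5% lower in both. In the fit without the replicate number as a block, the log2 differences of Chd8, mutant minus control, ranged from -0.22 to 0.31. Their standard errors lay between 0.28 and 0.47. The largest was in inhibitory neurons, 0.31 ± 0.33, and excitatory neurons had 0.25 ± 0.42. The number of classes with a positive difference was 11 of 13, and it was 2 of 13 both without control replicate 1 and without mutant replicate 2, 13 of 13 without control replicate 2 and 12 of 13 without mutant replicate 1. With a library left out, 1 genotype is represented by 1 replicate only. These fits had no replicate term, and Chd8 over all cells was higher in replicate 2 by 0.50 on the log2 scale. The counts with a library left out therefore cannot separate genotype from replicate.

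**Figure D4:**
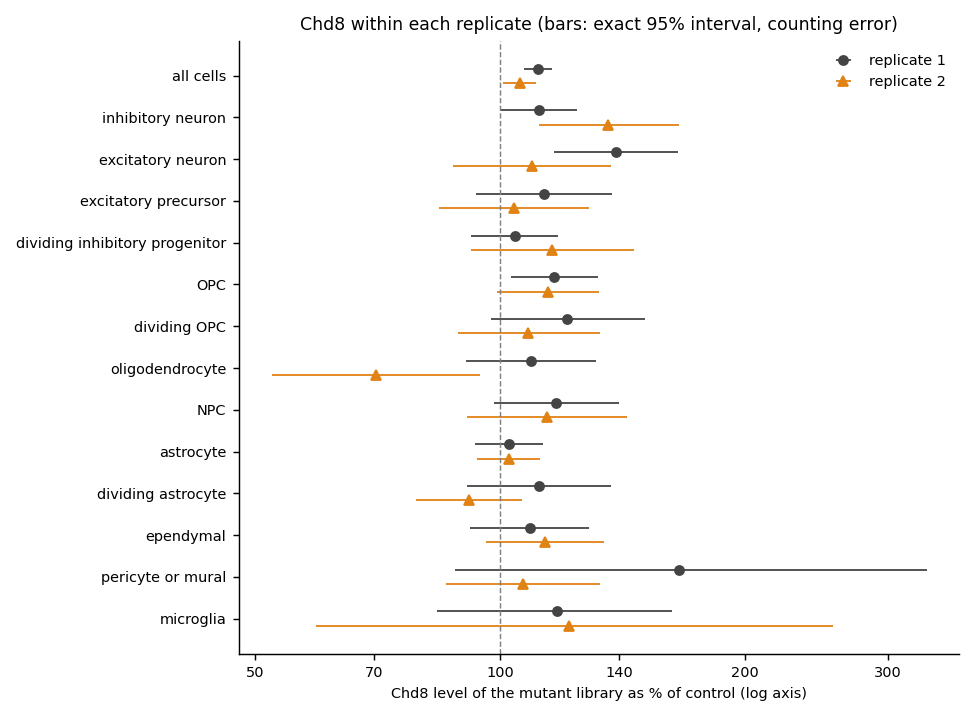
The Chd8 level of the mutant library as a percentage of its control (x axis, log scale) is plotted for all cells and 13 classes (y axis), for replicate 1 (circles) and replicate 2 (triangles) with exact 95% intervals for counting error. Most points lie at or to the right of 100%, and replicate 2 oligodendrocytes lie at 70.3%.

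No member passed the genotype test in any class. With edgeR, 0 of 114 member tests had an adjusted p below 0.05 and 0 had an unadjusted p below 0.05. Beside these, 0% of all 154550 gene tests were called and 0.142% (220) had an unadjusted p below 0.05. This fit had no replicate term, so the difference between replicates entered its spread. At 0.142%, far fewer tests passed the unadjusted threshold of 0.05 than would without any difference between genotypes. The fit was therefore conservative, and its lack of calls does not show equal levels. The lowest adjusted p of a member was 0.9997. DESeq2 called 0 members, 0 of them with an unadjusted p below 0.05. With the replicate number as a block, 0 members were called and 1 had an unadjusted p below 0.05, Chd3 in oligodendrocytes (log2 difference 0.37, unadjusted p = 0.0367, adjusted p = 0.999), beside 133 genes called and 3.73% of gene tests with an unadjusted p below 0.05. The fitted differences ranged from -0.24 to 0.04 for Chd1, -0.14 to 0.06 for Chd2, -0.35 to 0.37 for Chd3, -0.15 to 0.25 for Chd4, -0.90 to 0.22 for Chd5, -0.19 to 0.06 for Chd6, -0.25 to 0.26 for Chd7 and -0.37 to 0.09 for Chd9. For Chd5, 10 classes passed the filter on low counts. An exact two-sided permutation test of 2 against 2 libraries cannot give a p below 0.333, so it was uninformative for single values.

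The signs within replicates varied from gene to gene. Of 115 combinations of a member and a class with a value in each library, 26 were higher in both mutant libraries. A further 30 were lower in both and 59 were of opposite sign. Among all genes with at least 40 UMIs in a class, 24.8% were higher in both and 23.5% lower in both. The pooled counts of the members lay near these shares, and the differences between members were not tested. Chd1 was lower in both in 6 classes and higher in both in 0, Chd2 likewise in 6 and 0, and Chd9 in 5 and 0. Chd4 was of opposite sign in 12 of 13 classes. Control and mutant libraries did not overlap in 5 classes for Chd3, 4 for Chd9, 3 for Chd1, 2 each for Chd5 and Chd7, 1 for Chd8 and 0 for Chd2, Chd4 and Chd6, beside 15.7% of all genes.

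**Figure D5:**
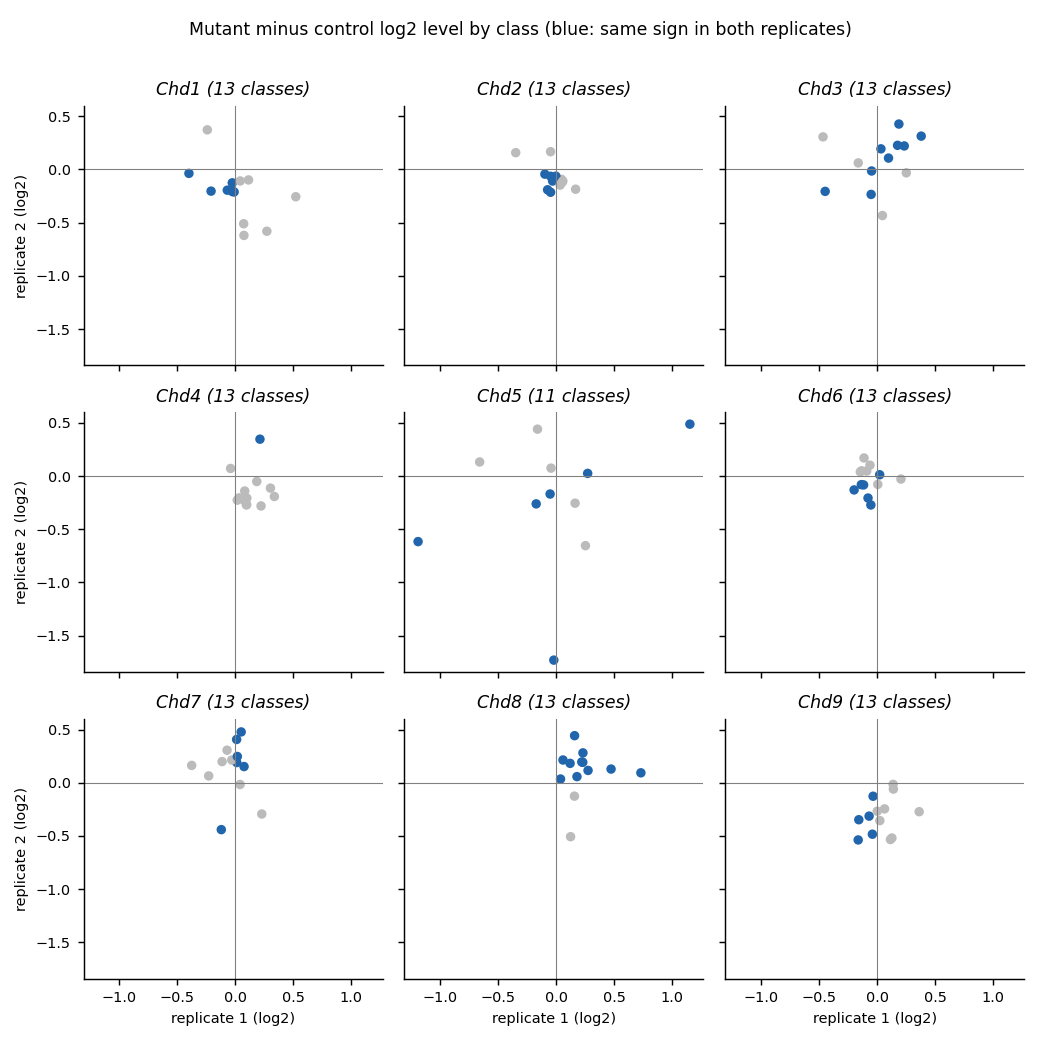
Each panel is a Chd gene and each point a cell class, with the log2 difference between mutant and control in replicate 1 on the x axis and in replicate 2 on the y axis. Blue points have the same sign in both replicates. The Chd8 points lie in the upper right in 11 of 13 classes, and the Chd4 points lie in opposite-sign quadrants in 12 of 13.

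Whether the genotype difference itself varied between classes was tested with all genotype-by-class terms together. No member passed (adjusted p = 1 for each in edgeR with 0 unadjusted p below 0.05, and 0 by DESeq2), beside 0.019% of genes (3 of 15752). With a replicate-by-class term, 232 genes passed and the lowest adjusted p of a member was 0.126, for Chd3 (unadjusted p = 0.00274).

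The partners of the family were summarised from 3 lists, all of whose genes passed the filter on low counts in the comparisons between classes. The 12 NuRD partners (deacetylases, histone chaperones, Mta, Mbd and Gatad2 proteins, and Cdk2ap1) were mostly lower in neurons and astrocytes than in their dividing or precursor classes. Between inhibitory neurons and dividing progenitors 3 were higher and 8 lower, with a median of -0.58 beside 0.15 for all genes, of which 33.3% were higher and 22.5% lower. Rbbp7, a histone chaperone, was at -1.26 ± 0.08 and Cdk2ap1 at -1.37 ± 0.13, while Hdac2, a deacetylase, was at 0.36 ± 0.08 and Mta3 at 0.72 ± 0.18. Between excitatory neurons and precursors 1 was higher and 8 lower, with Hdac1 at -1.34 ± 0.11, beside 27% and 17.6% of all genes. Between astrocytes and dividing astrocytes 0 were higher and 7 lower, beside 31% and 14.4% of all genes, and between OPCs and dividing OPCs 0 and 4, beside 17.7% and 9.28%. Between oligodendrocytes and OPCs 5 were higher, Hdac1 by 0.57 ± 0.10 and Mbd3 by 0.52 ± 0.09 among them, and 1 lower, beside 19.1% and 28.7% of all genes. Between neurons and the mean of astrocytes and OPCs, Hdac2 was at 1.35 ± 0.06 and Hdac1 at -0.63 ± 0.07, and 6 partners were higher and 3 lower, beside 35.5% and 33.7% of all genes.

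The 6 partners of CHD8 were Ctnnb1, Ctcf, Trp53 and the histone methyltransferase subunits Wdr5, Ash2l and Rbbp5. All 6 were higher in neurons than in astrocytes and OPCs, with Trp53, the p53 gene, at 0.70 ± 0.09 and Ctcf, which encodes an insulator protein, at 0.56 ± 0.06, and with a median of 0.49 beside 0.02 for all genes, of which 35.5% were higher. Along the inhibitory lineage, where Chd8 was higher in the neurons, 0 of the 6 were higher and 5 lower, Ctcf at -0.66 ± 0.08 and Trp53 at -0.61 ± 0.12 among them, beside 33.3% and 22.5% of all genes. Against dividing astrocytes, astrocytes had 0 higher and 5 lower, beside 31% and 14.4% of all genes. In the other lineage steps, the counts higher and lower were 0 and 2 in excitatory neurons (27% and 17.6% of all genes), 1 and 2 in oligodendrocytes (19.1% and 28.7%) and 0 and 1 in OPCs (17.7% and 9.28%).

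The 19 other Snf2-family ATPases were divided. Between inhibitory neurons and dividing progenitors 6 were higher and 7 lower, beside 33.3% and 22.5% of all genes, with Smarca1, an ISWI motor, at 2.05 ± 0.19 and Smarca2, a BAF motor, at 1.18 ± 0.11 against Ttf2 at -3.95 ± 0.24 and Hells, which acts in DNA methylation, at -2.42 ± 0.17. The excitatory lineage had 5 higher and 5 lower, beside 27% and 17.6% of all genes, with Smarca1 at 2.67 ± 0.22 and Hells at -3.61 ± 0.21. Oligodendrocytes had 2 higher and 7 lower than OPCs (19.1% and 28.7% of all genes), astrocytes 3 and 6 against dividing astrocytes (31% and 14.4%), and OPCs 2 and 6 against dividing OPCs (17.7% and 9.28%). In neurons 9 were higher than in astrocytes and OPCs and 4 lower, beside 35.5% and 33.7% of all genes, among them Smarca4 (0.63 ± 0.06) and Chd1l, a relative of Chd1 without chromodomains (-1.72 ± 0.17). Between genotypes, 0 list members passed in edgeR, of 156 tests for the NuRD partners, 77 for the CHD8 partners and 237 for the other ATPases, with 0, 0 and 1 at an unadjusted p below 0.05, and 0 by DESeq2.

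The genes whose levels were most like those of each member were taken by Pearson's correlation of log2(CPM + 1) over the 13 classes, ranked by the lowest of the correlations in the 4 libraries, among 8116 genes with a mean of at least 20 CPM (8117 for Chd5). Chd3 was matched most closely, by Smarcd1, a BAF subunit, with a lowest r of 0.94, Pcgf3, a Polycomb subunit (0.93), and Rbm4, a splicing factor (0.93). Chd8 was most like Cadps, a secretory vesicle factor (0.90), Luc7l and Ddx55. Chd6 was most like Snrpn (0.88), Chd5 like Anks1b (0.86) and Dpp6 (0.84), Chd4 like Caprin1 (0.82), Txnrd1 and Smarca4 (0.74), Chd7 like Naa15 (0.82) and Spen (0.82), Chd9 like Clk1 (0.77) and Chd2 like Mtus1 (0.76). Chd1, which varied least, had the weakest match, Ddx19a at 0.63. Among the members themselves, r ranged over libraries from 0.64 to 0.84 between Chd3 and Chd8 and from 0.68 to 0.80 between Chd3 and Chd6, whereas Chd6 and Chd9 ranged from -0.51 to 0.57. The classes share libraries and depth, so these correlations describe the 13 classes and carry no test.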

How the data were processed

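The authors sorted tdTomato+ cells, made 10x 3′ v3.1 libraries and deposited raw UMI counts per gene and cell (mm10). The submitters' processing notes name Cell Ranger 3.0, while the matrix headers name 7.0.0 and 5.0.1. The filter kept barcodes with 2000 to 40000 UMIs and a minimum of 1000 genes, whose mitochondrial share did not exceed 10%. Clustering (scanpy 1.11.5, 2000 variable genes, 30 components, resolution 1) left out the members, and clusters were named from marker lists. A cluster whose leading genes favoured another class took that name where it was among the 2 highest scores with at least 2 markers among 10 leading genes, and otherwise stayed unnamed. This rule was set after the clusters were seen. It named the oligodendrocyte cluster, where the oligodendrocyte score was 3.626 beside 4.995 for the highest class. It also named the NPC clusters, with NPC scores of 1.923 beside 3.296 in the larger and 2.002 beside 2.655 in the smaller. Doublets were called with Scrublet and kept (2.50% to 2.60% in replicate 1, 0.0914% to 0.471% in replicate 2, where the caller cannot be taken to have worked).

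Counts were summed per class and library and tested with edgeR 4.0.16 (TMM, filterByExpr, quasi-likelihood, Benjamini-Hochberg, prior count 2), with DESeq2 1.42.0 as an alternative, and the fits were tested on simulated data. Replicate numbers were taken to pair libraries because the software versions follow them and same-numbered libraries deviated together (r = 0.609 to 0.897 over classes). A pair of neighbouring classes was counted as differing beyond the spread where the mean paired difference over 4 libraries exceeded its SD. Named genes were all members, the listed partners with at most 4 examples a comparison by size of change, and the 3 genes most like each member. Members and lists were chosen with earlier results of these data known. Sequences were read from GENCODE vM21 transcripts, and 99.8% of genes were matched. Protein sequences were not used here.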

Additional observations from a re-analysis of the deposited data

Results flagged for a closer look

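The sign of the mutant minus control difference varied between classes for 4 members, in that it was positive in both replicates in some classes and negative in both in others. Chd3 was higher in both mutant libraries in 6 classes and lower in both in 3. The differences were 0.38 and 0.31 (log2, replicates 1 and 2) in oligodendrocytes and -0.45 and -0.21 in pericytes and mural cells. Chd5 was higher in both in 2 classes and lower in both in 4, Chd6 higher in 1 and lower in 5, and Chd7 higher in 5 and lower in 1. For Chd7 the values were 0.05 and 0.48 in OPCs and -0.12 and -0.44 in oligodendrocytes. These sign differences between particular classes were not tested, and the test over all classes together gave an adjusted p of 1 for each of the 4 genes. With the replicate as a block within classes, that test in edgeR gave Chd3 an unadjusted p of 0.00274 and an adjusted p of 0.126. Over all genes with enough counts, 24.8% were higher and 23.5% lower in both mutant libraries of a class.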

How the results depend on the processing

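Of the comparisons of a called member with each alternative, 1159 kept direction and call, 200 lost the call and 2 changed sign. Chd4 in microglia was -0.0047 without TMM scaling and Chd7 in NPCs was 0.59 at resolution 2. Of the 106 calls, 35 were lost without the library block, 17 to 20 within a replicate alone, 18 at resolution 2, 19 without the low-count filter and 11 to 19 when a library was left out, and between 89 and 96 tests were then called. The mitochondrial limit of 5% left microglia and oligodendrocytes with too few cells, and 12 of the remaining 89 calls were lost. The genotype difference of Chd8 ranged from -0.17 to 0.43 over all cells and from -0.10 to 0.73 in excitatory neurons when a library was left out. Those fits had no replicate term, and Chd8 over all cells was higher in replicate 2 by 0.50 on the log2 scale. Leaving out a library thus mixed the replicate difference into the genotype difference, so these ranges do not measure the genotype difference alone. With the replicate block, 0 members passed between genotypes, as without it, 1 member had an unadjusted p below 0.05, and genes called rose from 0 to 133. The lowest adjusted p of a member was 0.984. Unthinned shares of cells with a Chd5 UMI were 49.5% in dividing OPCs, 24.8% in OPCs, 25.03% in excitatory neurons, 11.2% in inhibitory neurons, 18.1% in ependymal cells and 2.61% in excitatory precursors. Of the 27 most-like genes, 17 were kept at a minimum of 50 CPM. That limit left the correlations unchanged and could only drop genes below it, so this count is no check of them. When a library was left out, 15 to 20 were shared.

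With 2 libraries of pooled mice per genotype and no replicate block, genotype p-values measure the spread between pools together with the difference between replicates. The standard errors of the Chd8 difference in a class were 0.28 to 0.47, or 0.14 to 0.30 with the replicate block. The replicates differ in counting software and in Xist, and the parts of these in the differences of the Chd genes between replicates cannot be told apart. Chd5 in excitatory precursors, microglia and pericytes rests on few UMIs.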

Other observations

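The classes outside the tests also held the family. In the 2 unnamed clusters, Chd7 was at 401, 374, 425 and 419 CPM in control 1, control 2, mutant 1 and mutant 2 (404 ± 22.8), and Chd3 at 198 ± 10.1 CPM. Fibroblasts (103 cells) had 161 ± 17.9 CPM of Chd3 and endothelial cells (166 cells) had a mean of 29.9 CPM of Chd9. These classes had too few cells in a library, or no name, and were not tested.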
